A study of Mus musculus with 6 samples.

Results

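The genes described here build and run the DNA replication fork and carry cells into S phase, the part of the cell cycle in which the genome is copied. A list of 41 such genes was used, and a gene was taken by its name on the array, with the value of its brightest probe. Names matched for 37 of the 41 genes, among 29742 gene names on the array. The other 4 were on the array under older names, and their values are given apart from the counts: Cdt1 (as Ris2), Dbf4 (as AA545217), Rfc1 (as Recc1) and Dut (as Dutp).

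The cells were primary mouse embryonic fibroblasts, connective tissue cells grown from minced embryos that the labels place at day 15 of development. They came, per the study's methods, from mice of a mixed genetic background and were either wild type or WrnΔhel/Δhel, that is, homozygous for a germline deletion of part of the helicase domain of Wrn, the mouse homologue of the gene mutated in Werner syndrome. Each of 3 comparisons was made on 2 arrays: H2O2 against no treatment in wild type cells, H2O2 against no treatment in mutant cells, and mutant against wild type when neither was treated. Treated cells received 0.5 mM H2O2 for 1 hour and then fresh medium for 24 hours, so these are levels after recovery and not during the exposure. No group carried another allele or agent, the deletion is in every cell of the mutant embryos, and the labels call the arrays of a comparison biological replicates without saying from how many embryos or cultures the cells came.

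Replication starts where the origin recognition complex, with Cdc6 and Cdt1, loads the MCM helicase onto DNA in G1, a step called licensing. The kinases Cdc7-Dbf4 and cyclin E-Cdk2 then fire the origins, the primase and the polymerases alpha, delta and epsilon copy the strands, and the clamp Pcna with its loader Rfc, the single-strand binding protein Rpa and the ligase Lig1 complete them. Ribonucleotide reductase, thymidylate synthase and thymidine kinase supply the deoxynucleotides, and Chaf1 places histones on the new DNA. Many of these genes are known targets of the E2F transcription factors, whose activity rises as cells pass from G1 into S phase, so in a culture their RNA levels follow the share of cycling cells. In bulk RNA, fewer cells in S phase and less RNA per cell cannot be told apart.

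Since these genes are known to share E2F control, the promoters of the list were searched for 4 forms of the E2F element, TTTGGCGC, TTTCGCGC, TTTCCCGC and TTTGGCGG, on both strands. Promoter sequences came from RefSeq (GRCm38.p6) and were there for 36 of the 41 genes. In the 250 bases before the start site, 8 of the 36 promoters (22.2%) held at least 1 of these forms, compared with 610 of 27025 genes (2.26%). With 50 bases after the start site added, the shares were 38.9% and 2.7%. The GC box GGGCGG was found in 75.0% of the members' upstream windows against 35.4% of all genes, the CCAAT box CCAAT in 55.6% against 37.5%, and the CHR element TTTGAA of mitotic genes in 11.1% against 18.3%. Of the 8 promoters with an E2F form, 5 belong to origin licensing and helicase genes. The stretch around a match is shown for each of the 8, since these are the promoters of the list in which the letters occur. They lie at chr8:75109320-75109407 (Mcm5, plus strand), chr1:128359706-128359792 (Mcm6, minus strand), chr5:138172001-138172088 (Mcm7, minus strand), chr11:98907973-98908060 (Cdc6, plus strand), chr4:108579387-108579453 (Orc1l, now Orc1, plus strand), chrX:93632246-93632333 (Pola1, minus strand), chr5:151651209-151651258 (Rfc3, minus strand) and chr17:56040332-56040415 (Chaf1a, plus strand), upstream of the RefSeq start site in each case. Sequences run 5′ to 3′ along the gene's strand, and capitals mark the match, in Mcm5 2 overlapping matches on opposite strands. A match is a description of the letters and not a site shown to be bound.
Mcm5: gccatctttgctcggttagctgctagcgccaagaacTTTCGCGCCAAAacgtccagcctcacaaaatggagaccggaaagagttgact
Mcm6: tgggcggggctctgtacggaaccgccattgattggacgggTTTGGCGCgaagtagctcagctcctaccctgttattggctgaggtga
Mcm7: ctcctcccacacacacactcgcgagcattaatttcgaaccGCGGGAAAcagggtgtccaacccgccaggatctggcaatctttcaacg
Cdc6: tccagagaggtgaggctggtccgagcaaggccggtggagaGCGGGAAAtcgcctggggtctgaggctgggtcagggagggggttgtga
Orc1l: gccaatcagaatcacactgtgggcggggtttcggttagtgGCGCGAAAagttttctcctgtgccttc
Pola1: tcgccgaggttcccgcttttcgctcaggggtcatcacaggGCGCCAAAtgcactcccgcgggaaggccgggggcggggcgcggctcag
Rfc3: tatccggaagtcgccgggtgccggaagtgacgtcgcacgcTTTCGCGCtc
Chaf1a: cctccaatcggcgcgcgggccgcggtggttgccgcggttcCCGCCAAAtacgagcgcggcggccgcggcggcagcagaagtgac

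Values are log2 ratios of the 2 dyes on an array, after subtraction of the local background and loess normalization, so a ratio of 1 is a 2-fold difference. The software that read the arrays had marked 0.4% to 22.6% of the spots as outliers, and these were left out. The array with 22.6% was replicate 2 of treated wild type cells, on which 12 members were lost. All 37 members stood well above background in Cy3 on all 6 arrays, none was saturated, and their mean log2 intensities ran from 5.20 (Orc1l) to 11.05 (Pcna). In Cy5, Orc1l was not well above background on both mutant treatment arrays and on genotype replicate 4. The same held for Cdc6, Pola2, Pold1, Ccne2 and Chaf1b on replicate 2 of treated mutant cells. All 10 fibroblast markers, such as Col1a1, Vim and Pdgfra, stood well above background in both dyes on all 6 arrays. Of the 4 Wrn probes, 1 had a log2 ratio between mutant and wild type cells of -0.90 (limma adjusted p = 0.0111), in a direction opposite to the sample labels that is set out below, and the others 0.00, 0.37 and 0.38 (adjusted p = 0.998, 0.153 and 0.252). Which probe lies in the deleted part is not known here, so Wrn does not check the labels. In limma's fit across all probes and all 6 arrays, a member was called at an adjusted p under 0.05.

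In wild type cells 24 hours after H2O2, most replication genes had ratios above 0, but none was called. Of 36 members with a value, 29 lay above 0 (50.6% of all genes did) and 7 below, with a median log2 ratio of 0.56, a 1.47-fold level, against a median of 0.00 over all genes. None passed an adjusted p under 0.05, a level that 0.454% of all genes passed as higher and 0.399% as lower, and the smallest adjusted p of a member was 0.0527. At an unadjusted p under 0.05, 20 members were higher and 1 was lower, where 10.8% of all genes were higher and 9.18% lower (10.7% and 14.8% of genes with a mean log2 intensity above 6). Among the 20, Mcm3, Mcm5, Mcm7, Orc6l, Prim1 and Rfc4 had a value on replicate 1 alone. Their p-values hold no spread between the wild type arrays. The medians of the members on the 2 arrays were 0.60 and 0.42. Of the 24 members measured on both arrays, 16 lay above 0 on both and 3 below 0 on both.

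**Figure D1:**
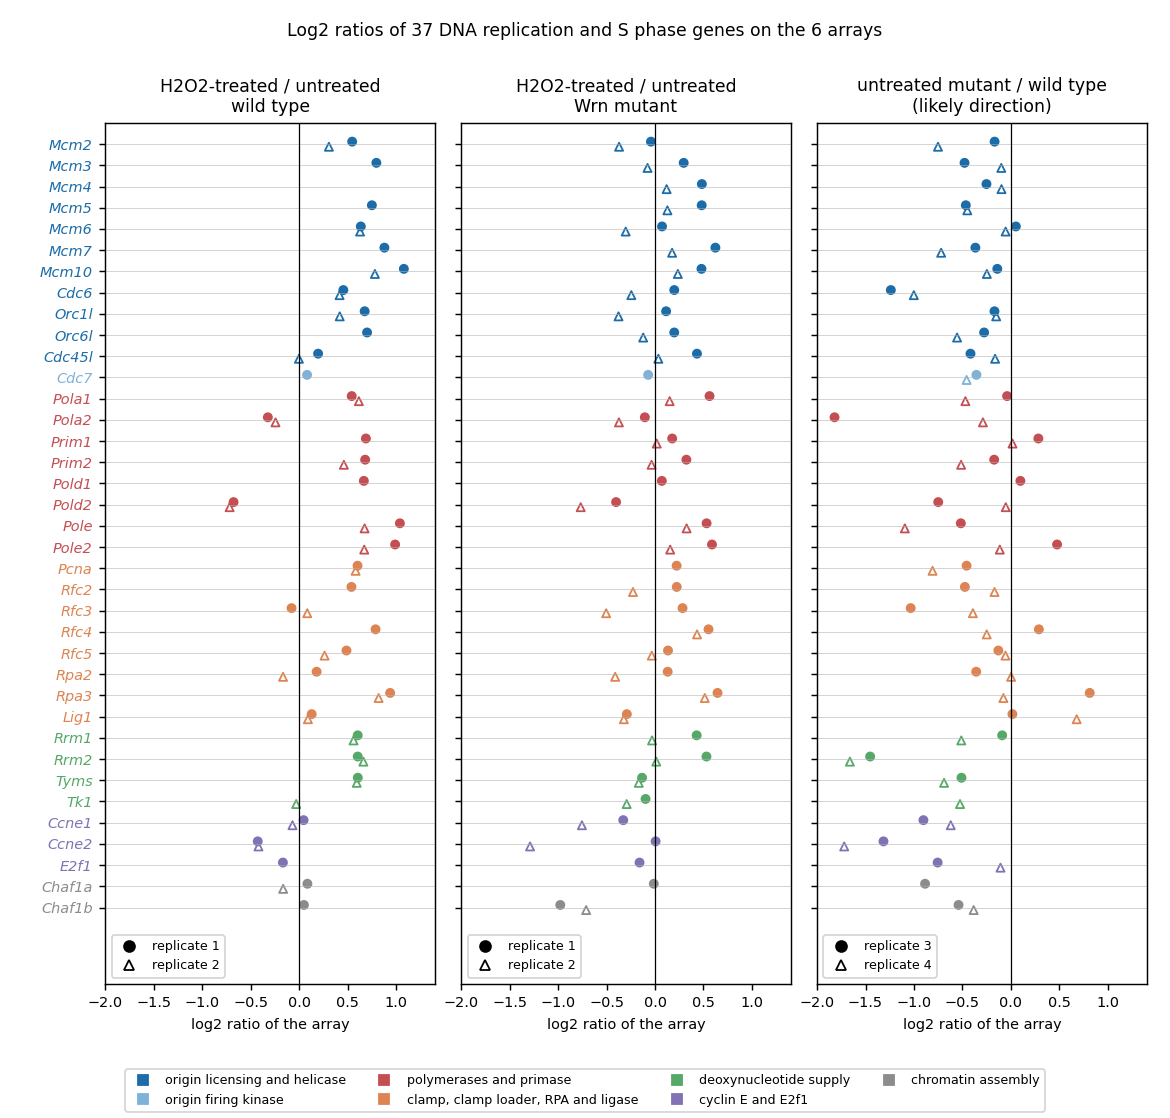
Log2 ratio (horizontal axis) of each of the 37 members (rows, coloured by role) on each array, with filled circles for the first replicate and open triangles for the second. In wild type cells (left) most points lie right of 0, in mutant cells (middle) the circles lie right of the triangles in 31 of 32 members, and in untreated mutant against wild type cells (right, likely direction) 31 of 37 members have a mean below 0.

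All 10 measured licensing and helicase genes had a mean above 0, with a median log2 ratio of 0.67. Mcm10, which helps to activate the loaded helicase, had log2 ratios of 1.08 and 0.78 (mean 0.93, SE 0.17; limma adjusted p = 0.0527). Mcm6, a subunit of the helicase, had 0.64 and 0.63 (mean 0.63, SE 0.17; adjusted p = 0.0983). The arrays of Mcm6 lay closer together than those of Mcm10. Mcm7 had 0.88 on replicate 1 alone (SE 0.28; adjusted p = 0.159), and its marked spot on replicate 2 stood at 0.96. Mcm3 and Mcm5 also rested on replicate 1, with 0.80 and 0.75, and their marked spots stood at 0.89 and 0.73. The other probe of Mcm3 had the opposite sign, at -0.53. Orc1l, of the origin recognition complex, had 0.68 and 0.42, and Cdc6, the loader, 0.46 and 0.42. Both arrays lay above 0 for both genes, and the promoters of Mcm5, Mcm6, Mcm7, Cdc6 and Orc1l are among those shown above. Orc6l, another subunit of the origin recognition complex, had 0.70 on replicate 1, and Mcm2 had 0.55 and 0.31. Cdc45l, which travels with the helicase, had the lowest mean of the group at 0.20 and -0.00, and Mcm4 was marked on both arrays (0.54 and 0.57 with the marked spots kept). Cdt1, measured under its older name on replicate 2 only, had 1.28 (unadjusted p = 0.00433, adjusted p = 0.0863), Dbf4 a mean of 0.25, and Rfc1 0.32 on replicate 1, while Dut was marked on all 4 treatment arrays.

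Among polymerases and primase, 6 of 8 members lay above 0 and the median log2 ratio was 0.62. Pole, the catalytic subunit of polymerase epsilon, had log2 ratios of 1.04 and 0.68 (mean 0.86, SE 0.20; limma adjusted p = 0.0798). Its partner Pole2 had 0.99 and 0.67 (mean 0.83, SE 0.21; adjusted p = 0.0926). Both subunits of this polymerase had about the same ratio on each array. Pola1, the catalytic subunit of polymerase alpha, had 0.54 and 0.62, Prim2, of the primase, 0.68 and 0.46, and Prim1, its catalytic subunit, 0.69 on replicate 1. Pold2, the accessory subunit of polymerase delta, was the single member lower at an unadjusted p under 0.05, with -0.68 and -0.72 (mean -0.70, SE 0.21; unadjusted p = 0.0122, adjusted p = 0.13), whereas Pold1, the catalytic subunit of the same enzyme, had 0.67 on the 1 array with a value. Pola2 had -0.32 and -0.24, and its other probe stood at 0.26.

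All 8 members of the clamp, clamp loader, Rpa and ligase group lay above 0, with a median log2 ratio of 0.46 and a wide spread. Rpa3, the small subunit of the single-strand binding protein, had log2 ratios of 0.94 and 0.82 (mean 0.88, SE 0.23; limma adjusted p = 0.0939), while Rpa2 had 0.18 and -0.17. Pcna, the sliding clamp, had 0.60 and 0.58 (mean 0.59, SE 0.18; adjusted p = 0.139). Within the clamp loader, Rfc4 had 0.79 and Rfc2 0.54 on 1 array each, Rfc5 0.49 and 0.26, and Rfc3 -0.08 and 0.08. Lig1, which seals the Okazaki fragments, lay close to 0 at 0.13 and 0.09.

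Of the deoxynucleotide genes, Rrm1 and Rrm2, the large and small subunits of ribonucleotide reductase, lay together at mean log2 ratios of 0.58 (arrays 0.60 and 0.56) and 0.63 (arrays 0.60 and 0.66). Tyms, thymidylate synthase, had 0.61 and 0.59 (mean 0.60, SE 0.15; limma adjusted p = 0.0934), although its other probes reached down to -0.32. Tk1, thymidine kinase, had -0.03 on 1 array. The cyclin E genes and E2f1, which drive entry into S phase, lay near or below 0. Ccne2 had -0.43 and -0.42 (mean -0.42; unadjusted p = 0.192), Ccne1 0.05 and -0.07, and E2f1 -0.17 on 1 array, so the means of all 3 were below 0. Chaf1a and Chaf1b, of the chromatin assembly factor, had means of -0.04 and 0.05, and Cdc7, which fires origins, 0.08 on 1 array.

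The counts depended on which arrays were used. The unadjusted count of 20 higher members became 10 without replicate 2 and 1 without replicate 1 of treated wild type cells. A fit on the 2 wild type arrays alone called 21 members higher and 2 lower at an adjusted p under 0.05, and 14.1% of all genes higher and 12.4% lower. Leaving out either genotype array called 19 members higher and 1 lower, and 12.6% of all genes higher and 11% lower (the fit over 6 arrays gives each probe 1 spread for all comparisons). Probes of the same gene had the same sign in 5 of the 10 genes with several measured probes. No array had its dyes exchanged, so a probe's preference for a dye enters each ratio. A dye value can be had by setting Cy5 of the genotype arrays against Cy3 of treatment arrays with the same untreated RNA, but it depends on the dye direction of the genotype arrays, which is unsettled. With mutant RNA in Cy5 the members had a median log2 ratio of Cy5 to Cy3 of 0.10 (-0.33 to 0.54), and with wild type RNA in Cy5, as the labels have it, of -0.54 (-1.74 to 0.31). Of the fibroblast markers with a value, 5 of 6 lay below 0 in treated wild type cells (median -1.02). The summed intensity of all 10, with outlier-marked spots kept, was 64100 to 74500 before H2O2 (Cy3) and 81100 to 91000 after it (Cy5). Vim and S100a4, the brightest of the 10 at mean log2 intensities of 14.89 and 14.63, weigh most in this sum. S100a4 was marked on all 6 arrays. The skeletal muscle markers summed to 3650 to 4710 before and 2030 to 3210 after. The part of these markers in the members' ratios was not tested.

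In mutant cells after H2O2 the members were centred near 0. Of 37 members, 19 lay above 0 (52.1% of all genes did) and 18 below, with a median log2 ratio of 0.04 against 0.01 over all genes. No member was called at an adjusted p under 0.05 (0% of all genes were). At an unadjusted p under 0.05, 2 members were higher and 3 lower, and 6.33% of all genes were higher and 6.24% lower. The medians on the 2 arrays were 0.20 and -0.10. Replicate 1 exceeded replicate 2 in 31 of the 32 members measured on both, by a median of 0.36, while over all genes the median gap was -0.01. The sign of the median therefore depends on the array, and it was -0.10 without replicate 1 and 0.20 without replicate 2.

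The members at the ends of the order were few. Chaf1b had log2 ratios of -0.98 and -0.71 (mean -0.84, SE 0.17; limma unadjusted p = 0.00253, adjusted p = 0.24). Its treated signal (Cy5) was not well above background on replicate 2. Ccne1 had -0.33 and -0.75 (mean -0.54, SE 0.18; adjusted p = 0.323), and Pold2 had -0.40 and -0.77 (mean -0.58, SE 0.21; adjusted p = 0.353), the latter being low after H2O2 in wild type cells too. Ccne2 had 0.01 and -1.29, a gap larger than any member's mean in this comparison, and its Cy5 signal was not well above background on the low array. At the upper end, Rpa3 had 0.65 and 0.51 (mean 0.58, SE 0.23; adjusted p = 0.386), Rfc4 had 0.55 and 0.43 (mean 0.49, SE 0.20; adjusted p = 0.403), and Pole had 0.53 and 0.33 (mean 0.43). These 3 genes were also among those above 0 in wild type cells. By role, the medians were 0.11 for licensing and helicase, 0.12 for polymerases and primase, 0.02 for the clamp group, 0.02 for deoxynucleotide supply, -0.54 for the cyclin E genes and E2f1, and -0.43 for Chaf1a and Chaf1b. The other 29 members had means from -0.31 (Lig1) to 0.40 (Mcm7). Orc1l was not well above background in treated mutant cells on either array, so only a bound exists there and no fold is given. Cdt1, under its older name, had 0.69 and 0.41 (mean 0.55; adjusted p = 0.371), Dbf4 a mean of 0.29 and Rfc1 of -0.15. Skeletal muscle markers summed to 4170 to 4230 before H2O2 and 2030 to 2100 after it here too. Of these 7 markers, 4 lay below 0 and 3 above (median log2 ratio -0.14), and the brightest, Acta1, had -2.20.

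**Figure D2:**
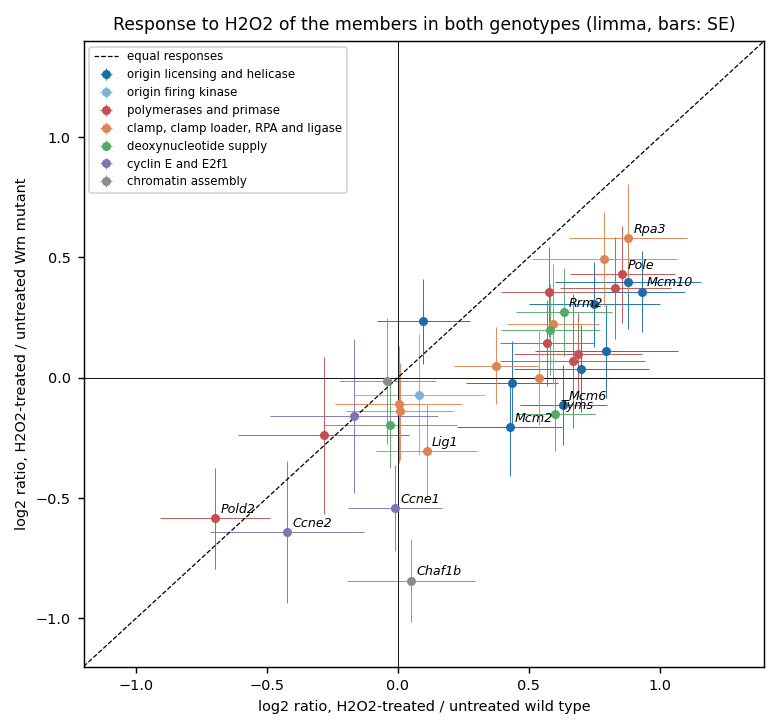
Mean log2 ratio of H2O2-treated over untreated cells in mutant cells (vertical axis) against wild type cells (horizontal axis) for the 35 members with both values, without Orc1l, coloured by role, with bars for the SE from limma (2 arrays per genotype at most). Most points lie below the dashed line of equal responses, and Pold2 and Ccne2 lie below 0 on both axes.

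The difference between the 2 responses was tested directly. As each processing day held 1 kind of comparison, day and genotype cannot be told apart in it. The response of mutant cells was the lower in 31 of 36 members, with a median difference of -0.42 in log2 ratio, against 0.00 over all genes, of which 50% lay above 0. No member was called at an adjusted p under 0.05 (0% of all genes were), and 5 were lower and 0 higher at an unadjusted p under 0.05, with 2.87% of all genes lower and 2.97% higher. Tyms had the smallest p, with 0.61 and 0.59 in wild type cells and -0.13 and -0.17 in mutant cells (difference -0.75, SE 0.22; limma unadjusted p = 0.0101, adjusted p = 0.706). Mcm6 had 0.07 and -0.30 in mutant cells against 0.64 and 0.63 (difference -0.75, SE 0.24; adjusted p = 0.762), and Mcm10 0.48 and 0.24 against 1.08 and 0.78 (difference -0.57, SE 0.24; adjusted p = 0.839). In these genes, by their brightest probe, the arrays of the genotypes did not overlap. The other probes of Tyms had differences of -0.73 and -0.13, and the latter probe had -0.32 in wild type cells on replicate 1 alone. Chaf1b (difference -0.89) rested on 1 wild type array. Orc1l was the remaining member at that level, and no difference is given for it, as treated mutant cells were not well above background. By role, the median difference was -0.60 for licensing and helicase, -0.43 for polymerases and primase, -0.43 for Chaf1a and Chaf1b, -0.37 for deoxynucleotide supply, -0.31 for the clamp group, -0.22 for the cyclin E genes and E2f1, and -0.15 for Cdc7. The highest differences, of Cdc45l (0.14), Pold2 (0.11) and Pola2 (0.04), were smaller than their SE. Across the 36 members the responses of the genotypes had a Pearson's r of 0.78 and a Spearman's rho of 0.81, as a description across genes that share arrays and dyes. The unadjusted count of 5 was 3 without mutant replicate 1, 0 without mutant replicate 2, 0 without wild type replicate 1, 1 without wild type replicate 2 and 12 without either genotype array, where 7.89% of all genes were lower.

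**Figure D3:**
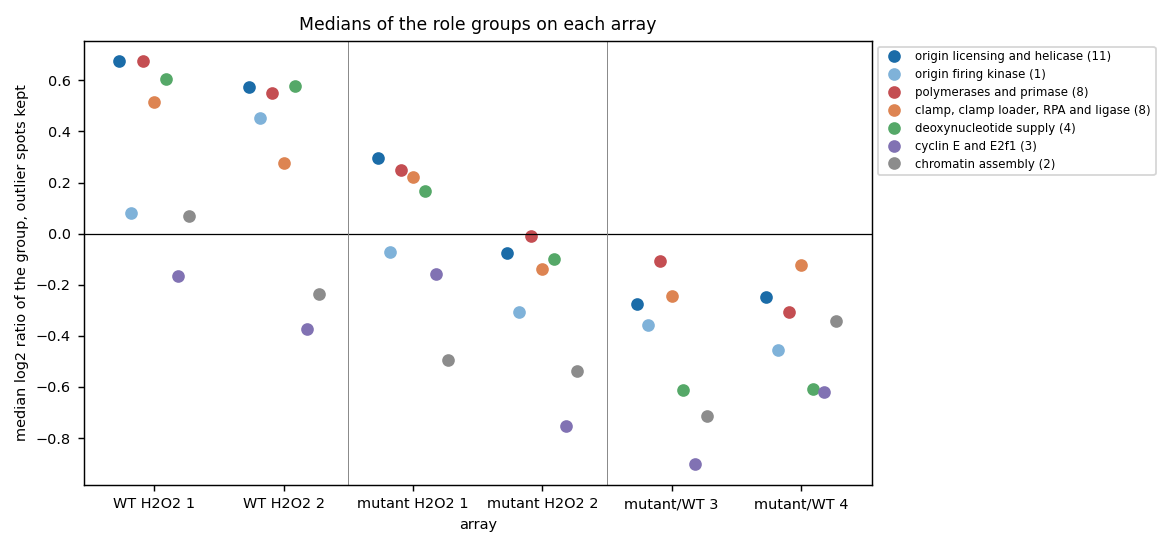
Median log2 ratio (vertical axis) of the members of each role group on each of the 6 arrays (horizontal axis), with outlier-marked spots kept so that each array covers the same genes and the number of genes in brackets. The licensing, polymerase, clamp and deoxynucleotide groups lie above 0 on both wild type treatment arrays and the cyclin E genes with E2f1 below 0 on all 4 treatment arrays. All these groups lie below 0 on both arrays of mutant against wild type cells in the likely direction, and above 0 in that of the sample labels.

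Untreated mutant and wild type cells were compared directly on the arrays labelled replicates 3 and 4. The labels place wild type RNA in Cy5, whereas a table of the study headed as mutant over wild type runs as Cy5 over Cy3, so the direction is not settled by the sources. It was taken as mutant in Cy5 and is called likely, against the sample labels, and with the labels' direction every sign below turns. Untreated cells can also be set against each other within Cy3 of the treatment arrays, whose labels are not in doubt. There, 98.7% of 835 probes with an adjusted p under 0.005 and a mean log2 intensity above 6 had the same sign (Pearson's r = 0.94 across probes), as did 29 of the 36 members. Both readings are given below.

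In the likely direction, replication genes were lower in untreated mutant cells. Of 37 members, 31 lay below 0 and 6 above (52.8% of all genes lay above), with a median log2 ratio of -0.40, a 0.757-fold level, against 0.04 over all genes. At an adjusted p under 0.05, 6 members fell and 0 rose, where 8.41% of all genes fell and 11% rose (12.6% and 16.1% of genes with a mean log2 intensity above 6, which 36 of the 37 members exceeded). At an unadjusted p under 0.05, 13 were lower and 0 higher, with 15.6% and 19.7% of all genes (21.3% and 24.6% of genes with a mean log2 intensity above 6). The medians of the members on the 2 arrays were -0.36 and -0.38, and of 34 members measured on both, 27 lay below 0 on both and 2 above 0 on both. Under the study's own rule for this comparison, an adjusted p under 0.005 and a mean log2 intensity above 6, only Rrm2 passed, with 2.2% of all genes.

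The 6 members that fell came from several steps. Their count of 37 lies near the share of 12.6% that fell among genes with a mean log2 intensity above 6. Rrm2, the S phase subunit of ribonucleotide reductase, had log2 ratios of -1.45 and -1.66 (mean -1.56, SE 0.18; limma adjusted p = 0.00302), a level of 0.34-fold. Ccne2, one of the E cyclins that drive entry into S phase, had -1.31 and -1.72 (mean -1.52, SE 0.29; adjusted p = 0.0144), and Ccne1, the other, had -0.90 and -0.62 (mean -0.76, SE 0.18; adjusted p = 0.0266). Both arrays were below 0 for both cyclins, and so were their other probes. Cdc6 had -1.24 and -1.0 (mean -1.12, SE 0.18; adjusted p = 0.00735), with its other probe at -0.32. Pole had -0.52 and -1.09 (mean -0.81, SE 0.20; adjusted p = 0.032), and Tyms -0.51 and -0.69 (mean -0.60, SE 0.15; adjusted p = 0.0348), with other probes of Tyms up to 0.01. Dbf4, the partner that activates Cdc7, fell as well under its older name, with -1.69 and -1.05 (mean -1.37, SE 0.22; adjusted p = 0.00745). The Cdc7 kinase itself had -0.36 and -0.46 (mean -0.41; adjusted p = 0.171). Rrm2, Cdc6 and Ccne2 kept their calls whichever array was left out, but with the Feature Extraction ratios Cdc6 (adjusted p = 0.0506) and Ccne2 (0.151) lost theirs, as Cdc6 did in a fit on this comparison's arrays alone (0.0886). Without any 1 of the 4 treatment arrays, Ccne1 (adjusted p = 0.062 to 0.0644), Pole (0.063 to 0.0837) and Tyms (0.0876 to 0.096) lost theirs, and without replicate 4 Pole (adjusted p = 0.083) and Tyms (0.0592) did.

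The remaining members were not called. Pcna had log2 ratios of -0.46 and -0.81 (mean -0.63, SE 0.18; limma adjusted p = 0.0527), Rfc3 had -1.03 and -0.39 (mean -0.71), and Pola2 had -1.82 and -0.29, so that its mean of -1.05 came mostly from replicate 3. Chaf1a, whose promoter is shown above, had -0.89 on 1 array, and Chaf1b had -0.54 and -0.38. Of the helicase, Mcm3 had -0.48 and -0.10, with its other probe at -1.35, and Mcm7 had -0.37 and -0.72, Mcm5 -0.47 and -0.45, and Mcm6 0.05 and -0.05. Mcm5 and Mcm6, subunits of 1 complex with E2F forms in both promoters, both lay above 0 after H2O2 in wild type cells, and here Mcm5 lay below 0 on both arrays and Mcm6 on 1. E2f1 had -0.76 and -0.11. At the upper end, Rpa3 had 0.81 and -0.08, Lig1 had 0.02 and 0.68, and Pole2 had 0.48 and -0.11, so the 3 highest members each owed their place to 1 array. The other 17 members had means from -0.53 (Tk1) to 0.15 (Prim1), and Cdt1, on 1 array, had 0.20. Dut, under its older name, lay above 0 on both arrays at 0.52 and 0.42 (mean 0.47; adjusted p = 0.126), and Rfc1 at -0.20 and -0.22.

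**Figure D4:**
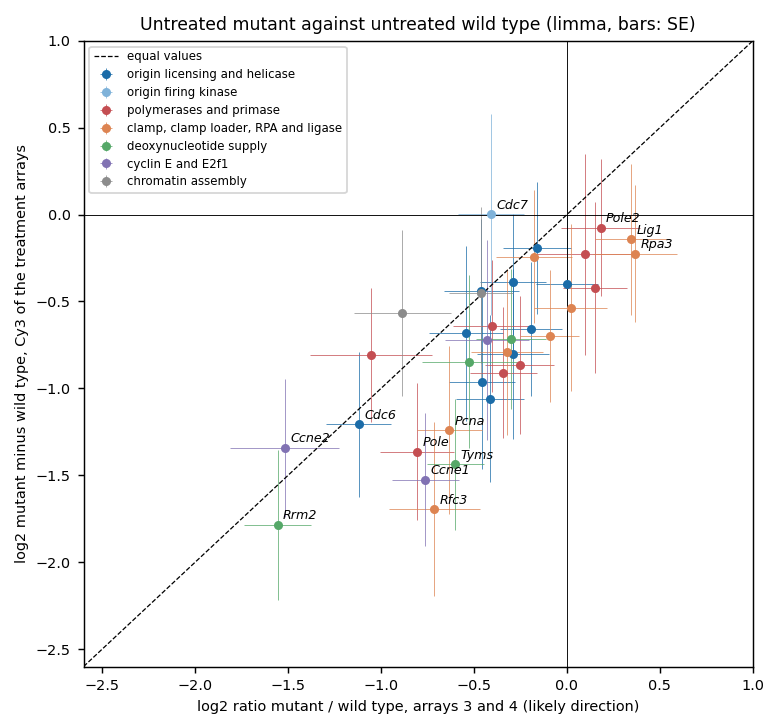
Mutant against wild type cells without treatment for 36 members, as log2 ratio on replicates 3 and 4 in the likely direction (horizontal axis) and as log2 difference within Cy3 of the 4 treatment arrays (vertical axis), coloured by role, with bars for the SE from limma. Rrm2, Ccne2, Cdc6, Ccne1, Pole and Tyms lie low on both axes, and Rpa3, Lig1 and Pole2 lie above 0 on the horizontal axis only.

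Read within Cy3 of the treatment arrays, after normalization between arrays, untreated mutant cells had lower levels for 35 of 36 members, with a median log2 difference of -0.71. Over genes with a mean log2 intensity above 6 the median difference was -0.17. At an unadjusted p under 0.05, 11 members were lower and 0 higher, with 6.77% of all genes lower and 2.99% higher, and none passed the adjusted level. The log2 intensity of Rrm2 in untreated cells was 10.86 and 9.90 in wild type and 8.33 and 8.86 in mutant cells (difference -1.78, SE 0.43; limma unadjusted p = 0.00117). That of Ccne1 was 8.70 and 8.99 in wild type and 7.20 and 7.43 in mutant cells (difference -1.53, SE 0.38; unadjusted p = 0.00153). That of Tyms was 10.03 and 9.98 in wild type and 8.62 and 8.53 in mutant cells (difference -1.44, SE 0.38; unadjusted p = 0.00212). In these 3 genes the mutant arrays lay below both wild type arrays. Within Cy5, treated mutant cells were lower than treated wild type cells for all 36 members, with a median of -1.10 against -0.10 over the genes above that intensity, and 21 were lower at an unadjusted p under 0.05 (6.09% of all genes, with 2.9% higher). Tyms alone passed the adjusted level there (difference -2.19, SE 0.39; adjusted p = 0.0386). Orc1l counts among the 36, though its signal in treated mutant cells was not well above background. These readings compare different arrays, share them with the responses above, and depend on the scaling between arrays: with median scaling the medians were -1.12 in Cy3 and -1.38 in Cy5. Processing day and genotype cannot be told apart in these readings, as each day held 1 kind of comparison. The fibroblast markers went the other way, with 9 of 9 above 0 and 5 of 9 called higher in the mutant cells of replicates 3 and 4. Over all genes 11% were called higher, and 16.1% of genes with a mean log2 intensity above 6. Of the 5 called, Col1a1 had a value on replicate 4 alone, and Col3a1 and Pdgfra on replicate 3 alone. Fn1, not called, had a value on replicate 4 alone. The summed intensity of these markers in Cy3 was 64100 to 74500 in wild type and 96300 to 113000 in mutant cells. The mast cell markers summed to 779 to 1230 in wild type and 199 to 200 in mutant cells, and 1 of 5, Mcpt8, was called lower. On replicates 3 and 4, Mcpt8, the brightest of these 5, had a log2 ratio of -4.82. Kit had -0.44, Tpsb2 -0.02, Cpa3 0.11 and Fcer1a 0.16, so the sum does not describe the list as a whole. The part of these markers in the members' values was not tested.

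Lists of neighbouring genes were counted in the same way. Of 26 other replication factors, 24 lay above 0 in treated wild type cells (median log2 ratio 0.35), and 6 were higher at an unadjusted p under 0.05 and none adjusted. Over all genes 50.6% lay above 0, and 10.8% were higher and 9.18% lower at the unadjusted level, which stands beside each list's count in these cells. Gmnn, the inhibitor of Cdt1, had 0.76 and Timeless, of the fork protection complex, 0.83. In treated mutant cells 14 of the 26 lay above 0 (median 0.07), and Timeless was at -0.02, its difference between genotypes being -0.86 (limma unadjusted p = 0.0212). All 8 measured genes of S phase chromatin lay above 0 in treated wild type cells (median 0.54), 4 of them at an unadjusted p under 0.05. Among these 4 were Nasp, a histone chaperone, at 0.55 and Hells, a chromatin remodeller, at 0.78 on replicate 1 alone. Of 12 other nucleotide synthesis genes, 4 were higher and 1 lower at an unadjusted p under 0.05. Cad, which starts pyrimidine synthesis, had 0.82 and Shmt1 -1.27, both on replicate 1 alone. The 20 genes of E2F, RB and G1 control had a median of -0.00 there, with 1 higher and 3 lower at that level, of which Cdk6 had -0.72 and Ccnd3 -1.53. No difference between these lists was tested.

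In untreated mutant against wild type cells, in the likely direction, 5 of the 26 other replication factors fell and 2 rose at an adjusted p under 0.05, beside the 8.41% and 11% of all genes (12.6% and 16.1% above a mean log2 intensity of 6) that apply to each list here. Top2a, topoisomerase II, had a log2 ratio of -1.87, Mcm8 -1.43, Wdhd1 -1.41, Fen1, the flap endonuclease, -1.22 and Tipin, the partner of Timeless, -1.0. Rpa1, the large subunit of the single-strand binding protein, rose by 1.07 and Orc3l by 1.26. Of E2F, RB and G1 control, 4 of 21 fell and 1 rose. Cdc25a, a phosphatase that activates Cdk2, had -1.98, Skp2, of a ubiquitin ligase, -1.46 and Myc -0.92. Tfdp1, the partner of E2F, had -1.30 on replicate 4 alone, and Cdk2 rose by 0.89. Of nucleotide synthesis, Dck (-1.04) and Cad (-0.66) fell and Dguok (1.03), which is mitochondrial, rose. Of S phase chromatin, Hells (-1.01), Asf1b (-0.81) and Supt16h (-0.68) fell and Rbbp4 (0.80) rose. The list of cell cycle brakes was split, with Cdkn2a, the p16 and p19Arf locus, higher by 2.26 and Gadd45a by 1.01, and Ccng1 at -1.08 and Cdkn2d at -0.80. Of these brakes, 5 of 12 were higher at an unadjusted p under 0.05 in mutant cells after H2O2 and 1 of 11 in wild type cells, where 6.33% and 10.8% of all genes were. The 1 in wild type cells was Gadd45a, at 1.03 on replicate 1 alone. Of the 5, Mdm2 and Btg2 had a value on replicate 1 of mutant cells alone, and Mdm2 had none in wild type cells. Cdkn1a, also of the 5, had 0.65 in mutant cells and, on replicate 1 alone, 0.52 in wild type cells (difference 0.13, limma unadjusted p = 0.669). Cdkn2b had 0.53 in mutant cells and, on replicate 1 alone, 0.03 in wild type cells. Ccng1, a p53 target, stood at 1.62 in mutant cells and, on replicate 1 alone, at 0.36 in wild type cells after H2O2. The difference of 1.26 rests on 1 wild type array and was not called at an adjusted p under 0.05.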

How the data were processed

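The authors scanned 2-colour Agilent Whole Mouse Genome arrays and deposited, per spot, mean and local background intensity in Cy3 and Cy5, flags (other) and a log10 ratio of Cy5 over Cy3 after Feature Extraction's own normalization. The deposited series matrix holds log2 ratios, background subtracted and loess normalized, and correlated with the ratios computed here at r of at least 0.999 on each array, with 2466 values missing on replicate 4. The paper gives cytoplasmic RNA and another software version, the labels total RNA.

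Here, the local background median was subtracted, loess was fitted within each array with control spots at weight 0, outlier-marked spots were then dropped, and spots of 1 probe were averaged (41174 probes). The 6 arrays were fitted together with limma 3.58.1 (lmFit, eBayes) in R 4.3.3, with 1 coefficient per comparison, 3 residual and 4.18 prior degrees of freedom, two-sided p-values and Benjamini-Hochberg adjustment over all probes. A gene's value is that of its probe with the highest mean log2 intensity. Separate channels were scaled between arrays with Aquantile. Tables were read with the packages data.table, jsonlite 2.0.0 and pandas 2.3.3 (Python 3.11.15), and plots were made with matplotlib 3.10.9. The fit was tested on simulated data with known changes. Only 2 arrays per comparison limit the precision, and p-values measure the spread between these samples.

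The members and gene lists were chosen with earlier results of these data known. Named were the members at an unadjusted p under 0.05 with the same sign on both arrays (the 12 of smallest p), the 3 highest and 3 lowest, and others where they complete a role; of other lists, genes called or, up to 6, at that unadjusted level. Markers of macrophages, skeletal muscle, epithelium, endothelium and mast cells were read beside those of fibroblasts; 0, 0, 1, 0 and 1 genes were called, all lower in untreated mutant cells. Alternatives concerned the background, outlier spots, Feature Extraction ratios, the series matrix, single comparisons, a replicate block, left-out arrays, dim probes, several probes and the dye direction.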

Additional observations from a re-analysis of the deposited data

Results flagged for a closer look

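In 3 members both wild type treatment arrays lay above 0 and both mutant treatment arrays below 0, and limma's test of the difference between the responses is given for each. For Tyms the difference in log2 ratio (mutant minus wild type) was -0.75 (unadjusted p = 0.0101, adjusted p = 0.706). Its other probes had differences of -0.73 and -0.13, and the latter probe lay below 0 in wild type cells too (-0.32 on replicate 1 alone). For Mcm2, a subunit of the replicative helicase, the arrays stood at 0.55 and 0.31 in wild type and -0.04 and -0.37 in mutant cells, a difference of -0.63 (unadjusted p = 0.0592, adjusted p = 0.849). For Lig1 they stood at 0.13 and 0.09 in wild type and -0.29 and -0.32 in mutant cells, a difference of -0.42 (unadjusted p = 0.173, adjusted p = 0.918). None of the 3 passed the adjusted level. With arrays left out in turn, the difference of Tyms ran from -0.77 to -0.73.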

How the results depend on the processing

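The members' median in treated wild type cells ran from 0.42 to 0.60 when arrays were left out in turn, the median of untreated mutant against wild type cells from -0.40 to -0.36 and that of the difference between responses from -0.62 to -0.25. The median in treated mutant cells ran from -0.10 to 0.20, and was -0.0015 with outlier spots kept and -0.0013 in the series matrix. For mutant against wild type it turned to 0.40 with wild type RNA taken as Cy5 and was -0.34 with normexp and -0.42 with outlier spots out of the loess curve, a setting chosen after seeing the data. In Cy3 and Cy5 the medians were -1.12 and -1.38 under median scaling.

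Counts of members for treated wild type cells ranged over left-out arrays from 0 to 19 higher and 0 to 1 lower adjusted, and 1 to 23 higher and 0 to 1 lower unadjusted. For treated mutant cells they ranged from 0 to 2 higher and 0 to 3 lower adjusted, and 0 to 7 higher and 1 to 5 lower unadjusted. For mutant against wild type they ranged from 0 to 1 higher and 3 to 9 lower adjusted, and 0 to 2 higher and 10 to 15 lower unadjusted, and for the difference from 0 to 12 lower unadjusted. The count of 6 genes that fell was 3 without any 1 of the 4 treatment arrays, with Ccne1, Pole and Tyms lost. Normexp gave 4 higher adjusted and 2 lower unadjusted in wild type cells, 20 lower unadjusted in mutant against wild type and 10 lower in the difference. Keeping outlier spots, the series matrix and the intensity filter each gave 1 higher adjusted in wild type cells, Mcm10. Feature Extraction ratios gave 2 that fell, Rrm2 and Tyms, with Cdc6, Ccne2, Ccne1 and Pole lost. Fits on a comparison's own arrays gave 21 higher and 2 lower adjusted, and 2 lower unadjusted, in wild type cells. There 14.1% of all genes were higher and 12.4% lower adjusted, against 0.454% and 0.399% in the fit over 6 arrays. In mutant cells such fits gave 2 higher and 3 lower adjusted, and 7 higher unadjusted. For mutant against wild type they gave 2 lower adjusted and 6 unadjusted, and for the difference 12 lower unadjusted. The other counts at a p-value level in this section have no share of all genes beside them. They describe the setting and not the members.

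The deviations of same-numbered treatment arrays had a correlation of -0.037 over all probes, which cannot show whether the samples were paired. Among members measured on both arrays, replicate 1 was the higher in 19 of 24 in wild type and 31 of 32 in mutant cells. With the replicate block 12 were higher unadjusted in wild type and 0 in mutant cells. In that fit 3 fell in mutant against wild type cells and 3 were lower in the difference. Single genes turned sign as follows: in the difference, Pola2 was -0.037 with Feature Extraction ratios, and without mutant replicate 1 or 2 Pola2 was -0.089 or 0.18, Cdc45l -0.062 or 0.34 and Pold2 -0.070 or 0.30; Ccne2 in treated mutant cells ran from -1.29 to 0.0058; and in mutant against wild type Rpa3 ran from -0.078 to 0.81 and Pole2 from -0.11 to 0.48. The causes were not tested. A block for the processing day could not be fitted, as each day held 1 kind of comparison.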
